A study of Mus musculus with 2 samples.

Results

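The genes here encode the transforming growth factor beta (TGF-beta) ligands, a latent-ligand binding protein, and endothelial receptors for TGF-beta or bone morphogenetic proteins (BMPs). They were 10 genes fixed by name: the ligand genes Tgfb1, Tgfb2 and Tgfb3, the latent-ligand binding gene Ltbp1, the signalling receptor genes Tgfbr1, Tgfbr2, Acvrl1 and Bmpr2, and the co-receptor genes Tgfbr3 and Eng. They were represented by all 25 probe sets annotated with one of these symbols alone, out of 45101 probe sets on the array, and they were 10 of 18193 genes with such a probe set. RNA was measured on 2 one-colour expression arrays, 1 from old and 1 from young C57BL/6J mice. In both groups the left lung lobe had been resected (pneumonectomy), which is followed by growth of the lobes left in place, and vascular cells were taken from the right lobes by flow sorting. Both groups were operated, and unoperated mice were not analysed here. How old the mice were, how long after surgery the lobes were taken, which markers were used for sorting, and whether mice were pooled is not stated in the labels. With 1 array per group no difference below has a replicate check or a test, so values are given side by side. A gene is said to be past 2-fold toward old or toward young where its signal on that array was at least 2 times that on the other.

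TGF-beta is secreted as a latent complex in which a latent TGF-beta binding protein ties the ligand to the extracellular matrix until integrins, proteases or thrombospondin release it. The active dimer binds a type 2 receptor, which recruits and phosphorylates a type 1 receptor, and that receptor phosphorylates Smad proteins that enter the nucleus with Smad4. Endothelial cells are unusual in carrying ALK1, the product of Acvrl1, a type 1 receptor that answers mainly to BMP9 and BMP10 together with BMPR2 and endoglin and that acts through Smad1 and Smad5, beside the general TGF-beta type 1 receptor, the product of Tgfbr1, that acts through Smad2 and Smad3. Inherited loss of ENG or ACVRL1 underlies hereditary haemorrhagic telangiectasia, and of BMPR2 heritable pulmonary arterial hypertension.

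Upstream sequences are shown for the members that differed by 2-fold or more and have a RefSeq entry here, so that the genes that lay on the same side can be compared by letters. Of the members, 7 had an entry, and Tgfb3, Tgfbr3 and Acvrl1 had none. Each sequence is the 250 bases before the annotated start, read 5′ to 3′ on the gene's strand in build GRCm38.p6 from RefSeq. Capitals mark matches on either strand to any of 6 short motifs, whose letters are given below, and no matches overlapped in these windows.
Eng, chr2:32646345-32646594, plus strand: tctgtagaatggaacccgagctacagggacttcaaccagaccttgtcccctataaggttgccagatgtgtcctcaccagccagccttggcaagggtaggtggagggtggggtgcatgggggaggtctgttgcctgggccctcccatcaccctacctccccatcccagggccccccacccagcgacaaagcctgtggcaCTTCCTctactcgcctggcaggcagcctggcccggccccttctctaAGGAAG
Bmpr2, chr1:59764029-59764278, plus strand: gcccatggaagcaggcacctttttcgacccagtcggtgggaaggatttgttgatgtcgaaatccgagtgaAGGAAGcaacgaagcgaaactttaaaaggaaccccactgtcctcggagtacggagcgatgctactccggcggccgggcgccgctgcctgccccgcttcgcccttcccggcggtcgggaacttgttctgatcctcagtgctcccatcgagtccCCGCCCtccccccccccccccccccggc
Tgfbr1, chr4:47352972-47353221, plus strand, the upstream of 2 annotated starts: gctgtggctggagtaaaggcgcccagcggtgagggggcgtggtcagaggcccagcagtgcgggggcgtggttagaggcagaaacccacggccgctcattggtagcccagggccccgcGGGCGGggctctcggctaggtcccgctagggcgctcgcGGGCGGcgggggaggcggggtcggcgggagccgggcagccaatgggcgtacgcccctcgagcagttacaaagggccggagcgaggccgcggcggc
Tgfb2, chr1:186705990-186706239, minus strand: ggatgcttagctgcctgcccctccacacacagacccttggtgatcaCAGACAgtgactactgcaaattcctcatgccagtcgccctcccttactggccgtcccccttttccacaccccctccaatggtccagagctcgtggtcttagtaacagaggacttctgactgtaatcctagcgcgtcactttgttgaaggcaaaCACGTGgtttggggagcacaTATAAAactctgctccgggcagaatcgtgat
The ETS factor core AGGAAG occurred 2 times in the Eng window, at positions -52 and -6 from the start, and once in Bmpr2, at -180. In Tgfbr1 it was absent from the printed window and stood at -94 in the window of the downstream start, which is not printed. It stood in 29.5% of 32851 promoter windows of the same length. The GC box GGGCGG, found in 32.7% of windows, stood in Tgfbr1 at -133 and -95 and in Bmpr2 at -28. Of the 4 printed windows that of Tgfb2 alone held the TATA box TATAAA, which was at -31 and is found in 12.4% of windows. It alone also held the E-box CACGTG at -51, against 6.02% of windows. A Smad-binding sequence, CAGACA, found in 17.1% of windows, stood in Tgfb2 at -204 and at -203 in the window of the downstream Tgfbr1 start. The AP-1 motif TGANTCA, present in 6.75% of windows, was in none of the 4 printed windows. The Tgfb2 window was 53.6% G and C, against 62.4% for Eng, 64.0% for Bmpr2 and 74.8% for Tgfbr1. A match describes letters and is not evidence that a factor bound there.

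The signals below are the authors' MAS5 signals after scaling the arrays to a median log2 ratio of 0, and each log2 ratio is the old array minus the young. The floor, under which signals are treated as unordered, was 73.7 units. A fold against a signal below the floor is a lower bound. Other settings are named beside some values: the lower and higher floors are the arrays' 25 and 75 percentiles in place of the median, and the offset is 0.5 times the floor, added to each signal. The mean over probe sets averages the log2 signals of all probe sets of a gene, also those below the floor. Signals of different genes come from different probes and are not compared with each other.

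Of the 6 receptor and co-receptor genes, 4 (Tgfbr1, Tgfbr3, Eng and Bmpr2) were past 2-fold toward old and 0 toward young. Of the 4 ligand and ligand-storage genes, 2 (Tgfb2 and Tgfb3) were past 2-fold toward young and 0 toward old. The median log2 ratio was 1.39 over the receptors and -0.86 over the ligand genes, and 0.18 over all 10. Of the 12105 genes that reached the floor on either array, 16.0% were past 2-fold toward old and 11.3% toward young, and the median log2 ratio was 0.03. The members' counts, 4 of 10 and 2 of 10, stand beside those shares as a description, and the split by role was not tested.

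**Figure D1:**
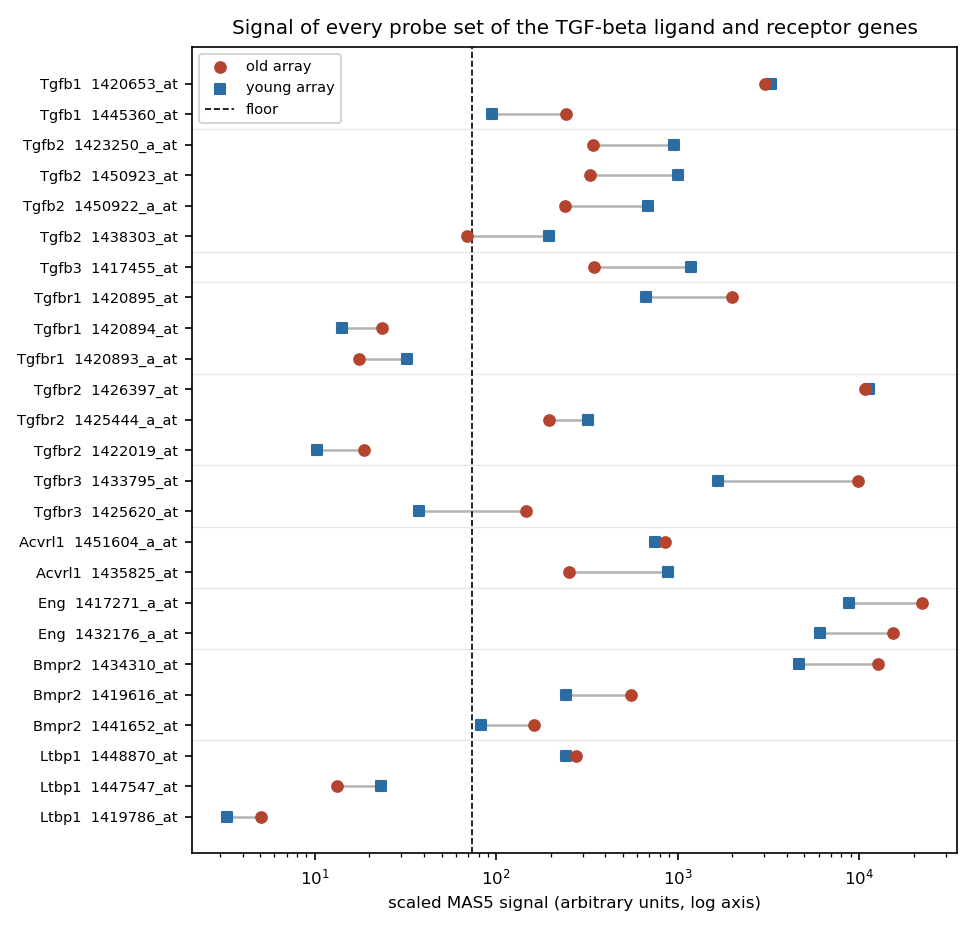
Scaled MAS5 signal (arbitrary units, log axis) of each of the 25 probe sets on the old array (circles) and the young array (squares), with a dashed line at the floor of 73.7. The squares lie to the right of the circles for all 4 Tgfb2 probe sets and for Tgfb3, and the circles lie to the right for both Tgfbr3, both Eng and all 3 Bmpr2 probe sets.

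Among the ligands, Tgfb3 gave 347 units on the old array and 1191 on the young, a log2 ratio of -1.78 from a single probe set. This is 3.43-fold more on the young array, and 583 of the 12105 genes lay as far or farther toward young. Tgfb3 encodes the ligand isoform best known from palate closure and mesenchymal tissue. Tgfb2, the isoform required for heart and cushion development, had 327 on the old array and 1007 on the young. Its log2 ratio was -1.62, or 3.08-fold, and 685 genes lay as far or farther toward young.

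The 4 Tgfb2 probe sets agreed in side. A further 2 gave 342 against 952 and 239 against 687, with log2 ratios of -1.48 and -1.52. The fourth, 1438303_at, was at 68.9 on the old array, below the floor, and 196 on the young, which is at least 2.65-fold. The probe sets other than 1438303_at were designed on the same database sequence, so these 3 are not independent measurements of the gene. The general spread between probe sets of the same gene had an SD of 0.42 on the log2 scale, over 4514 genes.

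Tgfb1, the isoform most expressed by blood and endothelial cells, was nearly level by its stronger probe set. The signals were 3046 on the old array and 3273 on the young, a log2 ratio of -0.10. Its other probe set, 1445360_at, was far dimmer and lay on the other side, with 242 against 94.5 and a log2 ratio of 1.36. The average over both was 0.63. The side on which Tgfb1 lies therefore rests on which probe set is read, and the young signal of the dimmer one is near the floor of 73.7. Ltbp1, which stores latent ligand in the matrix, had 274 on the old array and 244 on the young, a log2 ratio of 0.17, while its other 2 probe sets were below the floor on both arrays.

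Tgfbr3 had the largest ratio of the 10 genes. It encodes betaglycan, a proteoglycan that presents ligand to the type 2 receptor and is needed above all for TGF-beta2. Its signal was 9811 on the old array and 1673 on the young, a log2 ratio of 2.55 or 5.86-fold, and 625 of the 12105 genes lay as far or farther toward old. Its dimmer probe set gave 146 on the old array and 37.6, below the floor, on the young, which is at least 1.98-fold. Tgfbr3 and the ligand gene Tgfb2 therefore lay on opposite sides.

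Eng encodes endoglin, an endothelial co-receptor that takes part in BMP9 and TGF-beta signalling. Its signals were 22308 on the old array and 8777 on the young, a log2 ratio of 1.35 or 2.54-fold, and 1431 genes lay as far or farther toward old. A second probe set gave 15475 against 6122, a log2 ratio of 1.34. With quantile normalization the Eng ratio was 0.80, short of 2-fold.

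Bmpr2, the type 2 receptor gene of the BMP arm, had 12709 on the old array and 4694 on the young. Its log2 ratio was 1.44 or 2.71-fold, and 1328 genes lay as far or farther toward old. The other probe sets gave 556 against 244 (log2 ratio 1.19) and 161 against 82.1 (0.97), so all 3 lay on the old side.

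The type 1 receptor genes gave less certain values. Tgfbr1, the general TGF-beta type 1 receptor gene, had 2003 on the old array and 672 on the young, a log2 ratio of 1.58 or 2.98-fold. That value comes from 1 of 3 probe sets designed on the same sequence, and the other 2 had signals of 14.1 to 32.4, below the floor on both arrays. Averaging all 3 gave a young signal below the floor, so the log2 ratio of 0.34 is a lower bound. It is short of 2-fold, but the average takes in the 2 probe sets whose signals are treated as unordered. Acvrl1, which encodes ALK1, gave values on both sides of the 2-fold rule. Probe set 1451604_a_at had 853 on the old array and 747 on the young (log2 ratio 0.19), whereas probe set 1435825_at had 252 on the old and 880 on the young (-1.80, or 3.49-fold toward young). The average was -0.81, so neither the side nor the size of the Acvrl1 difference is settled by these arrays.

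Tgfbr2, the type 2 receptor gene that binds TGF-beta itself, was close to level. Its signals were 10775 on the old array and 11420 on the young, a log2 ratio of -0.08. A dimmer probe set gave 195 against 323 (-0.73), and another was below the floor on both arrays. Under quantile normalization the ratio of Tgfbr2 was -0.59, within 2-fold. Of the type 2 receptor genes, then, Bmpr2 passed the 2-fold rule and Tgfbr2 did not.

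**Figure D2:**
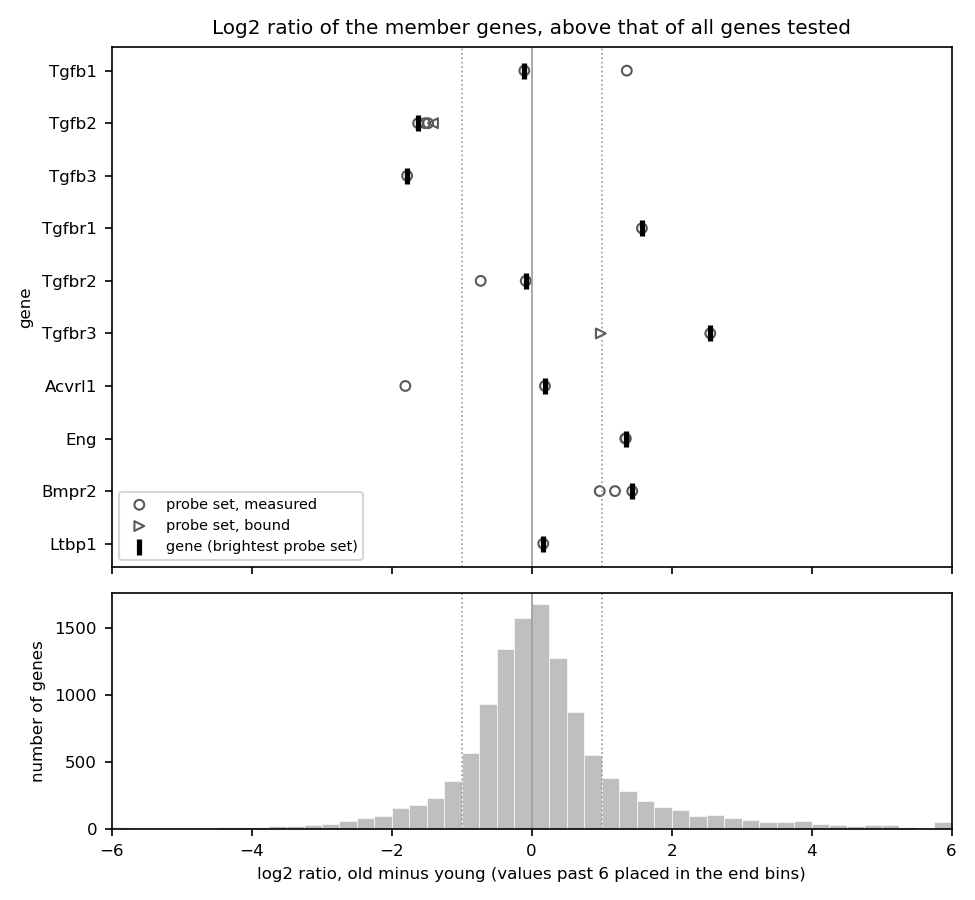
Log2 ratio (old minus young) of the 10 genes (black bars, the probe set of highest mean log2 signal) and of their probe sets that reached the floor on either array (circles, or triangles for lower bounds), over a histogram of the same ratio for 12105 genes, with dotted lines at 2-fold. Tgfb2 and Tgfb3 lie left of the rule and Tgfbr1, Tgfbr3, Eng and Bmpr2 right of it, while the probe sets of Tgfb1 and Acvrl1 fall on both sides of 0.

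Markers of other cell types moved with the comparison. All 10 pan-endothelial markers were above the floor on both arrays, with 4 past 2-fold toward old and 1 toward young. Past 2-fold toward old were 8 of 10 liver sinusoidal endothelial, 8 of 8 hepatocyte, 6 of 8 fibroblast, 8 of 10 pericyte and smooth muscle, 6 of 6 mesothelial, 8 of 9 leukocyte and 8 of 9 monocyte and macrophage markers above the floor. None in these 7 lists was past 2-fold toward young. Of 5 platelet markers 2 were past 2-fold toward old and 1 toward young, and of 4 lung epithelial markers 2 and 1. Lymphatic endothelial markers went the other way, with 5 of 7 past 2-fold toward young. The summed signals on the old and the young array were 106558 and 62910 for pan-endothelial, 175800 and 29579 for liver sinusoidal endothelial, and 35086 and 64662 for lymphatic markers. Most of the old lymphatic sum came from Lyve1 (14902 against 16120) and Flt4 (18035 against 10262), both within 2-fold. The 5 past 2-fold toward young were Prox1 (60.6 against 6885), Mmrn1 (74.6 against 10039), Reln (107 against 4023), Nts (27.2 against 10414) and Pdpn (1880 against 6918). The 2 Mmrn1 probe sets ranged from -7.07 to -0.11 in log2 ratio, and the old signal of 74.6 is near the floor. Lyve1 is also counted in the sinusoidal list, where it made up much of the young sum. The summed signals were 23046 and 411 for fibroblast, 27007 and 491 for pericyte and smooth muscle, 17230 and 121 for hepatocyte, and 50927 and 820 for monocyte and macrophage markers. On the young array 9 of 10 fibroblast and 8 of 8 hepatocyte markers were below the floor. The lung epithelial markers Sftpc, Sftpa1, Aqp5 and Scgb1a1 were below it on both arrays. The part of these cell types in the values of the TGF-beta genes was not tested, and fewer cells of a type cannot be told apart from less RNA per cell.

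The rest of the pathway was read from 7 lists of 110 genes. Of these, 105 were matched to the array and 91 reached the floor on either array. Over all lists 37 genes (40.7%) were past 2-fold toward old and 12 (13.2%) toward young, with a median log2 ratio of 0.63. With the 5 genes that also mark fibroblasts or smooth muscle left out, the counts were 32 and 12 of 86. Only genes on the marker lists were left out, and the myeloid gene Nrros, for example, remained. The part of the cell types in these 86 was not tested. The shares over all genes were 16.0% and 11.3%. The lists were chosen with earlier results of these data known, so these shares stand side by side as a description only.

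Genes that store or release latent TGF-beta lay on both sides. Of 18 above the floor, 9 were past 2-fold toward old and 4 toward young (median 1.44). The largest ratios toward old were those of Nrros, which anchors latent TGF-beta on myeloid cells (2950 against 177), the gelatinase gene Mmp2 (3044 against 216) and Emilin1, whose elastic-fibre protein restrains TGF-beta processing (6387 against 673). The 4 on the young side were the proprotein convertase gene Pcsk6 (217 on the old against 4497 on the young array), the urokinase gene Plau (308 against 2311), the integrin gene Itgb3 (318 against 2333) and Ltbp3 (1633 against 4446). Plau, Itgb3 and Ltbp3 were singled out after their values were seen. The probe sets of Itgb3 ranged from -2.87 to -0.23 in log2 ratio. The list median was 1.96 with the lower and 0.70 with the higher floor.

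The latent TGF-beta binding proteins, relatives of Ltbp1 that were also singled out after their values were seen, did not share a direction. Ltbp4 was 5.25-fold higher on the old array (6901 against 1315) and Ltbp2 at least 6.13-fold (451 against a young signal below the floor). Ltbp3 was 2.72-fold higher on the young array, by a probe set of a kind that can match several transcripts (a shared-sequence probe set), and its probe sets ranged from -2.86 to -0.16. The log2 ratio of Ltbp1 was 0.17.

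Other type 1 and type 2 receptors and co-receptors stayed closer to level. Of 10 above the floor, 2 were past 2-fold toward old and 0 toward young (median 0.58). These were Acvr1, which encodes the BMP and activin type 1 receptor ALK2 (3633 against 1368, log2 ratio 1.41), and Bmpr1a, a BMP type 1 receptor gene (963 against a young signal below the floor, at least 13.1-fold). The Bmpr1a ratio was 0.98 with the higher floor and 0.73 as the mean of its probe sets, and that of Acvr1 was 0.98 as the mean, each short of 2-fold. The Bmpr1a value with the higher floor is a lower bound, and both means take in signals below the floor. With the higher floor, and with the mean over probe sets, 1 gene of the list was past 2-fold toward old. With the mean it was Acvr1b, an activin type 1 receptor gene, which had 0.75 by its main probe set and 1.55 as the mean. Its probe sets that reached the floor ranged from 0.04 to 0.75, so the 1.55 rests in part on signals below the floor. The co-receptor gene Rgmb (0.85) was within 2-fold.

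Of the 5 Smads that carry the signal and were above the floor, 1 was past 2-fold toward young and 0 toward old (median -0.51). This was Smad5 (693 against 1681, log2 ratio -1.28). Smad1, which with Smad5 carries the BMP and ALK1 signal, had a ratio of -0.84. It passed 2-fold with quantile normalization (-1.17), with loess (-1.04) and as the mean of its probe sets (-1.02). Smad2 (-0.51) and Smad3 (-0.49), which carry the TGF-beta signal, were within 2-fold. With the mean over probe sets 3 Smads were past 2-fold toward young, Smad3 (-1.21) among them, and the median was -1.02. Only 1 Smad3 probe set reached the floor (-0.49), so the -1.21 rests in part on signals below the floor. The count was 2 with quantile normalization and with loess.

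Inhibitory Smads, co-repressors, ubiquitin ligases and other regulators of the signal lay on both sides. Of the 16 genes in this list, 2 were past 2-fold toward old and 3 toward young (median 0.31). Not all of the 16 dampen the signal, and exceptions such as Zfyve9 and Usp15 were within 2-fold. Smad6 (8236 against 234) and Smad7 (3200 against 193), both inhibitory Smads, were the pair on the old side. The ubiquitin ligase genes Wwp1 (722 against 2558, log2 ratio -1.83) and Nedd4l (862 against 2692, -1.64) were on the young side, with the co-repressor gene Tgif2 (-1.63), singled out after its value was seen. The remaining 11 were within 2-fold.

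Target genes were mostly on the old side. Of 25 genes known to respond to TGF-beta in endothelium or fibroblasts, 15 were past 2-fold toward old and 1 toward young (median 2.09). The largest ratios were those of the smooth muscle actin gene Acta2, Col3a1, the collagen crosslinking enzyme gene Lox (8214 against a young signal below the floor, at least 111-fold) and Col1a2. Acta2, Col3a1 and Col1a2 are also among the markers of smooth muscle and fibroblasts counted above, and the probe sets of Acta2 ranged from 0.67 to 7.07 in log2 ratio, with the highest of the shared-sequence kind. Without the 5 targets in those marker lists, 10 of 20 were past 2-fold toward old and 1 toward young, with a median of 1.11. Only genes on those lists were left out, and the part of the cell types in the other 20 was not tested. Over all 25 the median was 1.18 with the higher floor. The target on the young side was Angptl4 (-1.45), which was read from a shared-sequence probe set, and without such probe sets the count toward young was 0.

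Of 14 genes that respond to BMP9 through ALK1, 9 were past 2-fold toward old and 1 toward young (median 2.23). Smad6, Smad7 and Bmp6 were joined by Cd36, a fatty acid receptor gene not confined to endothelium (10905 against 99.0, log2 ratio 6.78, with probe sets from 4.52 to 7.10). The part of the cell types in this list was not tested. On the young side stood Pdgfb (-1.67), which encodes a ligand for pericytes, singled out after its value was seen. The count toward young was 2 with the lower floor, with no floor and with the offset, and the list median was 2.91 with the mean over probe sets. Smad7 is counted here, among the TGF-beta targets and in the list with the inhibitory Smads, and 6 genes in all are in more than 1 list.

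Other ligands of these receptors and their traps split widely. Of 10 above the floor, 4 were past 2-fold toward old and 2 toward young (median 0.72). Bmp2 had 18710 on the old array and a young signal below the floor, Bmp6 had 4926 against 178, and Inhbb, an activin subunit gene, had 5420 against 433. Inhba, another activin subunit gene, had 404 against 98.0. Fst, which encodes follistatin, a secreted trap for activins, had 119 on the old array and 4117 on the young, a log2 ratio of -5.12 that a second probe set matched with -5.16. Bmp4 (354 against 3507, log2 ratio -3.31) was also on the young side. Inhba and Bmp4 were singled out after their values were seen. Of the ALK1 ligand genes, named for their role, Gdf2, which encodes BMP9, had 107 on the old array and a signal below the floor on the young, and Bmp10 was below the floor on both. The count toward old was 7 with the lower floor and 10 with none, and the median was 2.12 with the higher floor and 1.51 with none.

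**Figure D3:**
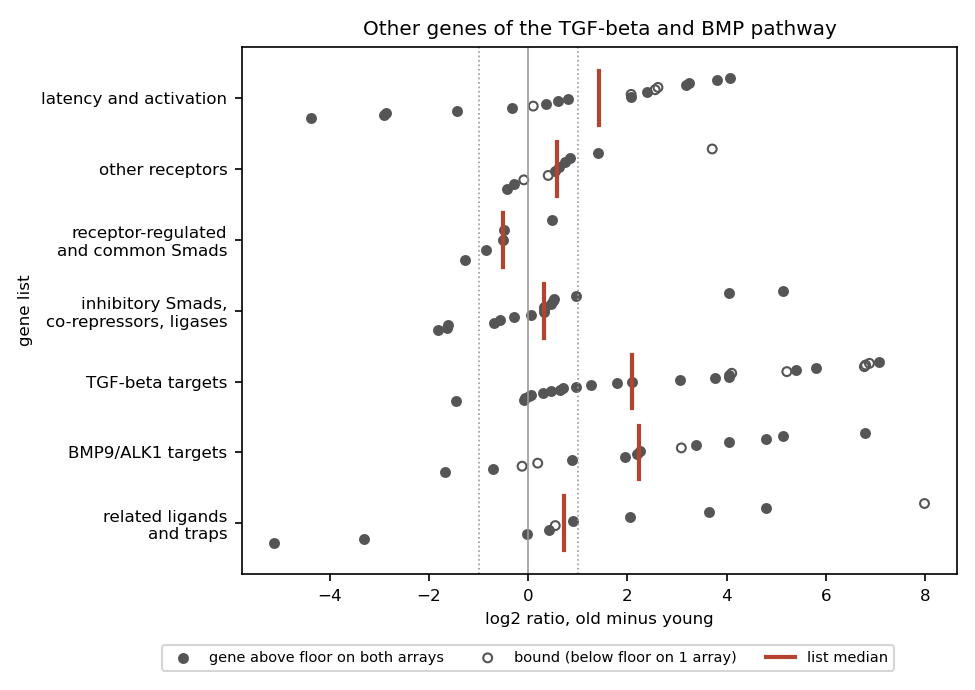
Log2 ratio (old minus young) of the genes in the 7 pathway lists that reached the floor on either array, with open circles for lower bounds, red bars at the list medians and dotted lines at 2-fold. The medians lie between -0.51 for the signal-carrying Smads and 2.23 for the BMP9 and ALK1 targets, and the latency list reaches from -4.37 to 4.06.

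The members' sides were read again under 10 other settings of scaling, floor and probe-set choice. Tgfb2 (from -1.75 to -1.04) and Tgfb3 (from -1.91 to -1.29) stayed 2-fold or more toward young, and Tgfbr3 (from 2.26 to 2.55) and Bmpr2 (from 1.11 to 1.44) toward old in each of them. Tgfbr1 ranged from 0.34 to 1.62 and Eng from 0.80 to 1.35, each short of 2-fold in 1 setting. The 0.34 of Tgfbr1 is a lower bound, from an average that takes in probe sets below the floor on both arrays. The ranges of Tgfb1 (-0.24 to 0.63), Tgfbr2 (-0.59 to 0.02) and Acvrl1 (-0.81 to 0.26) crossed 0. Each changed side only with the mean over probe sets. For Tgfbr2 that mean takes in a probe set below the floor on both arrays. Ltbp1 (0.04 to 0.22) was within 2-fold in 8 settings. With the higher floor and with the mean over probe sets it was below the floor on both arrays. These settings reuse the same 2 arrays and say nothing of how mice vary.

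**Figure D4:**
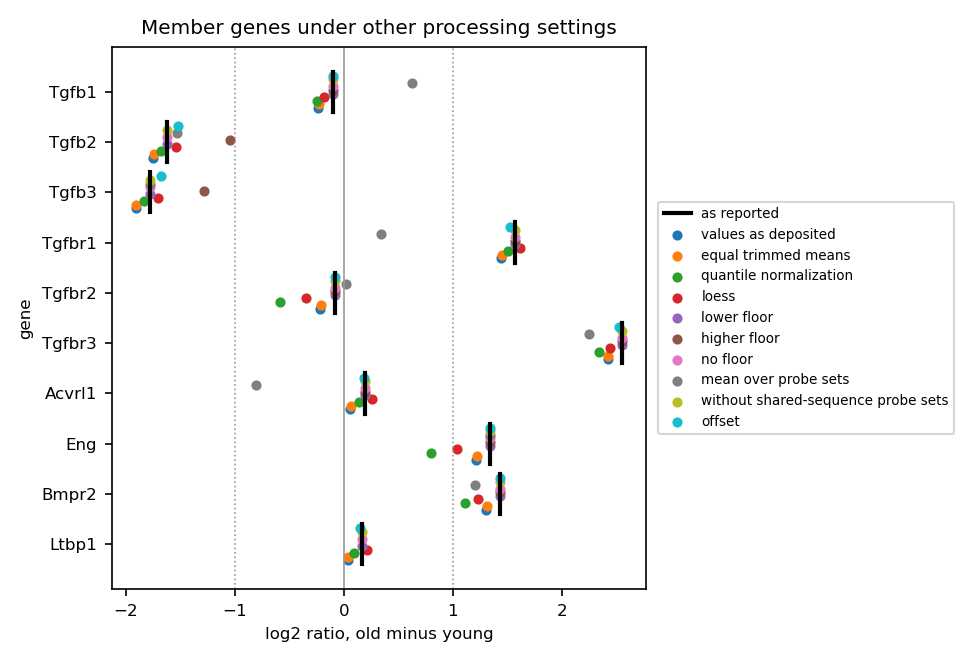
Log2 ratio (old minus young) of the 10 genes as reported (black bars) and under the other processing settings (coloured points), with dotted lines at 2-fold. The points of Tgfb2, Tgfb3, Tgfbr3 and Bmpr2 stay outside the dotted lines. Tgfbr1 averaged over its probe sets (0.34, a lower bound) and Eng after quantile normalization (0.80) fall inside.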

How the data were processed

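The authors deposited MAS5 intensity, linear and globally scaled, for each probe set, made with GCOS 1.4 and MAS5 per the submitters' processing notes. The deposited intensities have a mean of 500.003 on both arrays after trimming 2% at each end. Detection calls and probe-level data were not used here. Control probe sets (64) were left out. Gene symbols came from the 2016 platform annotation. Over probe sets above both array medians the deposited values gave a median log2 ratio of -0.13, which was set to 0 (factors 1.05 for old, 0.956 for young). The floor was the higher array median. The probe set of highest mean log2 signal stood for its gene.

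No test was possible with 1 array per group. The members and lists were chosen with earlier results of these data known. Named genes were all members and, per list, the 4 largest absolute ratios, with others marked. The procedure was tested on simulated data. Alternatives were the deposited scale, equal trimmed means, quantile normalization, loess (span 0.4), floors at the 25 and 75 percentiles or none, the mean over probe sets, leaving out shared-sequence probe sets, and an offset of 0.5 times the floor. Python 3.11.15, numpy 2.4.6, pandas 2.3.3, statsmodels 0.14.6 and matplotlib 3.10.9 were used.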

Additional observations from a re-analysis of the deposited data

How the results depend on the processing

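The count of members past 2-fold toward old was 3 with quantile normalization and with the mean over probe sets, and 4 in the other settings, and the count toward young was 2 in each of the 10. With the mean over probe sets the value of Tgfbr1 was a lower bound short of 2-fold. In that setting and with the higher floor Ltbp1 had no ratio. Over all genes, 1937 were higher on the old array and 1366 on the young. The floor moved these counts most: 2964 were higher on the old array with the lower floor, 986 on the old and 607 on the young with the higher floor, and 4293 and 2554 with no floor. The number of genes that can pass changes with the floor by construction. With the higher floor, Tgfb2 and Tgfb3 were below it on the old array, so their ratios there are bounds. Among named genes of the pathway lists, 241 of their values under other settings kept the side of the 2-fold rule, 5 passed it newly and 3 fell short of it. No member has a shared-sequence probe set, so leaving those out changed no member. No paired analysis was possible because each group has 1 array and the labels give no replicate numbers. Signals near the floor limit the Tgfb1, Tgfb2, Bmpr2 and Tgfbr3 values of their dimmest probe sets.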
